A study of Mus musculus with 2 samples.

Results

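The 9 genes described here are the cytokine genes Il4, Il13, Il5, Csf2 and Il3 of the type 2 cytokine cluster on mouse chromosome 11, the DNA repair gene Rad50 and the kinesin gene Kif3a that lie among and beside them, and the type 2 effector genes Il9 on chromosome 13 and Areg on chromosome 5. They were chosen by symbol, and all 9 were found among the 27179 genes of each deposited table. RNA was sequenced from progenitors of group 2 innate lymphoid cells (ILC2), which were sorted by flow cytometry from marrow of C57BL/6 mice aged 8 weeks. The study has 1 group of 2 libraries, called pool 1 and pool 2, and each was made from the cells of 8 mice pooled together. No treatment, mutant or other cell type was analysed here, and the labels give neither the sorting antibodies nor the sex of the mice. The column heading in each file carries the code of the other library (0 of 2 headings matched their own sample), so pool 1 and pool 2 exchange names in every difference below if the headings are right.

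ILC2 make the cytokines of type 2 immunity in response to signals from damaged or parasitised tissue, and in the marrow their progenitors already carry much of the mature ILC2 programme. In T helper cells, Il4 and Il13 are controlled together with Il5 by shared elements, among them a locus control region inside the Rad50 gene, while Rad50 and Kif3a themselves are expressed in most cell types. Cytokine mRNAs are usually short-lived, because AU-rich elements in their 3′ untranslated regions (UTRs) recruit proteins that speed their decay.

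The cytokine genes and their neighbours lie close together in the mm10 assembly. Kif3a (chr11:53565701-53604248, + strand) is followed after 8.21 kb by Il4 (chr11:53612460-53618665, − strand) and after a further 12.7 kb by Il13 (chr11:53631323-53634702, − strand). Rad50 (chr11:53649519-53707319, − strand) begins 14.8 kb beyond Il13, and Il5 (chr11:53720794-53725103, + strand) lies 13.5 kb beyond Rad50. Csf2 (chr11:54247270-54249899, − strand) is 522 kb farther on, with Il3 (chr11:54265085-54267279, − strand) 15.2 kb beyond it. Il9 stands at chr13:56479277-56482257 (− strand) and Areg at chr5:91139599-91148432 (+ strand).

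The sequences just before the starts of 5 of these genes are shown, some with TATA, GATA or NFAT motifs and some CpG-rich (Areg, Kif3a). Areg belongs to both kinds, since it also holds TATAAA. Each line gives the 150 bases before the RefSeq start (build GRCm38.p6, the mm10 assembly), 5′ to 3′ on the gene's strand. Capitals mark TATAAA, the GATA motif and the core motif of NFAT factors (GGAAAA), each searched on both strands. The GATA motif was spelled as AGATAA, with AGATAG as another form, and also with a first T, as TGATAA and as TGATAG.
Il4, upstream start, chr11:53618666-53618815, − strand: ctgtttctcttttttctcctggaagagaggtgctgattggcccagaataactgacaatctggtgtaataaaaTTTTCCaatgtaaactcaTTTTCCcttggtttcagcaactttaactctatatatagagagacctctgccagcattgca
Il13, chr11:53634703-53634852, − strand: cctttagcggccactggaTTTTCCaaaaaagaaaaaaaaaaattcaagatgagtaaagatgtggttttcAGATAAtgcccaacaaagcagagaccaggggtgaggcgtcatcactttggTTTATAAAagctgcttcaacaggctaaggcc
Il5, chr11:53720644-53720793, + strand: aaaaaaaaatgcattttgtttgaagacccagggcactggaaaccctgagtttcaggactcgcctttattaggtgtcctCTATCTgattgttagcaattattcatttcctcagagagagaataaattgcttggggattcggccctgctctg
Areg, chr5:91139449-91139598, + strand: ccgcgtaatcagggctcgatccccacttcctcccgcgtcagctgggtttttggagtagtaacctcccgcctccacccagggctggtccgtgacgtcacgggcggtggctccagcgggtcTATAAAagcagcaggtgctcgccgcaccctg
Kif3a, chr11:53567219-53567368, + strand: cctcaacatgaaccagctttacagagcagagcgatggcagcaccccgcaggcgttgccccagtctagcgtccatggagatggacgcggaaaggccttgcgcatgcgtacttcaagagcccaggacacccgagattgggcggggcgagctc
Il13 held TATAAA with its first base at position −29 and Areg at −31, counted from the start, and 1.99% of the 32851 promoters in the RefSeq table have it 20 to 40 bases before the start. In Il13 a copy on the other strand, at −31, overlaps it. A GATA motif stood at −81 in Il13 and at −72 on the other strand in Il5, and Il13 held the NFAT core at −132. The NFAT core stood 4 times in the 300 bases around the upstream start of Il4, of which the copies at −78 and −60 are within the stretch shown. Kif3a, printed from a start that lies inside the annotated span of its gene, held none of these motifs. Among all promoters of that length, 29.8% hold a GATA motif and 23.4% the NFAT core.

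Levels are given in RPKM, as deposited, which are reads scaled to gene length and library size. The deposited values are whole multiples of 1 read, which gave library totals of 20216146 reads for pool 1 and 19834586 for pool 2, and the read numbers below come from these. Intervals are exact 95% Poisson intervals on the reads and cover counting error only. Means carry the SD over the pools (n = 2), and since the pools are the only replicates of 1 group, no difference below has a test between conditions. Detected means at least 1 RPKM in pool 1 and also in pool 2. All 12 listed ILC2 genes were detected, against 40.5% of all genes. They ranged from Kit (16.6 ± 7.77 RPKM) to Ly6a (1160.4 ± 224 RPKM), with Gata3 at 271 ± 29.8 RPKM. Detection alone does not single out ILC2, since 12 of 13 T cell markers and 9 of 9 neutrophil and monocyte markers were detected too.

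Of the 9 genes, 7 were detected, against 40.5% of all genes in the tables. The same 7 were the ones above 0 in either pool (63.4% of all genes), and Csf2 and Il4 reached 10 RPKM in both (23.7%). Csf2, which encodes the myeloid growth factor GM-CSF, was the highest. Csf2 stood at 49.5 RPKM in pool 1 (1034 reads, interval 46.5 to 52.6) and at 35.2 RPKM in pool 2 (722 reads, interval 32.7 to 37.9). Its mean of 42.4 ± 10.1 RPKM was above that of 79.9% of the 11013 detected genes. Antisense gene Gm12223 overlaps exons of Csf2 in the GENCODE annotation, and the strand setting of the counting is not given in the sources used here, so reads of the pair cannot be told apart.

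Il4, the cytokine that drives IgE class switching and T helper 2 differentiation, was next, with overlapping intervals in the pools. Il4 had 11.8 RPKM in pool 1 (201 reads, interval 10.2 to 13.5) and 12.8 RPKM in pool 2 (214 reads, interval 11.1 to 14.6). Its mean of 12.3 ± 0.709 RPKM exceeded that of 44.8% of detected genes. Csf2 was 4.20 times as high as Il4 in pool 1 and 2.76 times in pool 2. Such ratios rest on the lengths behind the values, 1033 bases for Csf2 and 844 for Il4. Their main GENCODE transcripts have 800 and 590 bases.

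Il13, which acts on epithelium and smooth muscle through the IL-4 receptor chain, was lower than Il4 in both pools. Il13 had 6.28 RPKM in pool 1 (153 reads, interval 5.32 to 7.35) and 3.76 RPKM in pool 2 (90 reads, interval 3.03 to 4.62), so its intervals did not overlap. Il4 exceeded Il13 by 1.88 times in pool 1 and 3.40 times in pool 2. The length behind Il13 is 1206 bases, a multiple of the smallest length that gives whole reads, taken because the GENCODE transcript has 1205 bases.

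Il5, the growth and survival factor of eosinophils, was the lowest of the expressed cytokine genes. Il5 had 3.32 RPKM in pool 1 (103 reads, interval 2.71 to 4.03) and 1.41 RPKM in pool 2 (43 reads, interval 1.023 to 1.90), the pool 2 value lying just above the detection line. Il13 was 1.89 times and 2.66 times as high as Il5 in pools 1 and 2, and Il4 was 3.55 times and 9.05 times as high. An antisense gene, Gm12214, overlaps exons of Il5 and cannot be told apart from it either.

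Il3, a growth factor of basophils and mast cells that lies next to Csf2, was listed at 0 in both pools. Over the 629 bases of its GENCODE exons, 3 reads equal 0.236 RPKM in pool 1 and 0.240 in pool 2, the one-sided limit set for a count of 0. The Poisson intervals end at 0.290 and 0.296. The RefSeq span of Il3 reaches beyond the GENCODE 3′ end, and a greater exon length would lower these limits. Il9, a mast cell and ILC2 growth factor, was likewise listed at 0 in both, where 3 reads equal 0.277 and 0.282 RPKM over 536 bases and the intervals end at 0.340 and 0.347. A value of 0 in both pools was held by 36.6% of all genes.

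Areg encodes amphiregulin, a ligand of the epidermal growth factor (EGF) receptor that acts in tissue repair. Areg had 5.90 RPKM in pool 1 (143 reads, interval 4.97 to 6.95) and 2.48 RPKM in pool 2 (59 reads, interval 1.89 to 3.20), and the intervals did not overlap. Its mean of 4.19 ± 2.42 RPKM exceeded that of 18.5% of detected genes.

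The genes that flank the cytokines without being cytokines had the smallest differences between the pools of the 7 detected. Rad50, a subunit of the complex that senses DNA double-strand breaks, had 9.73 RPKM in pool 1 (1014 reads) and 10.3 RPKM in pool 2 (1057 reads). Kif3a, a motor subunit of kinesin-2 that serves cilia and vesicle transport, had 5.08 RPKM (279 reads) and 5.01 RPKM (270 reads). Their SDs over the pools were 0.430 and 0.0490 RPKM.

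By mean level the order was Csf2, Il4, Rad50, Kif3a, Il13, Areg and Il5, with Il3 and Il9 at 0. This order depends on the gene lengths behind the RPKM. Those of Csf2 and Il4 exceed their main GENCODE transcripts, and that of Kif3a is shorter (2719 against 3161 bases). Csf2 and Il4 did not overlap between the pools, nor did Rad50 and Kif3a (1.92 and 2.07 times). Il4 and Rad50 did not overlap either (1.21 and 1.24 times), although in pool 1 their counting intervals did. The interval of Rad50 was 9.14 to 10.4 RPKM in pool 1 and 9.73 to 10.98 in pool 2, where it lay below that of Il4. Kif3a and Il13, Il13 and Areg, and Areg and Il5 overlapped between the pools. Kif3a was 0.809 times as high as Il13 in pool 1 and 1.33 times in pool 2, so their order changed. Il13 was 1.06 and 1.52 times as high as Areg, but their counting intervals overlapped in each pool. Within the pools, Areg was 1.78 and 1.76 times as high as Il5, so the overlap of these 2 genes arises only across pools.

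**Figure D1:**
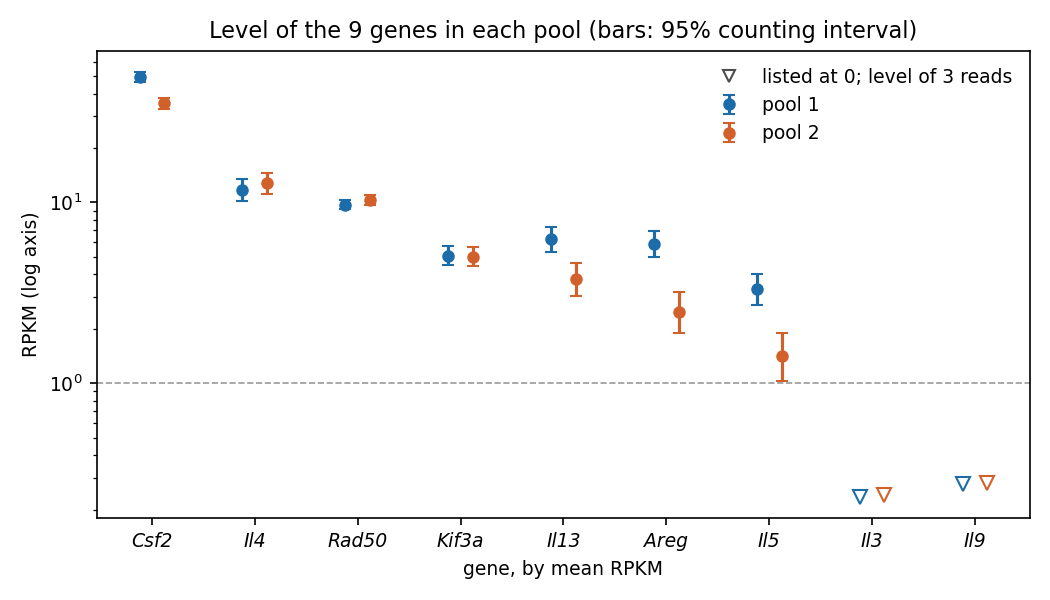
RPKM of each gene on a log axis in pool 1 (blue) and pool 2 (orange), in order of the mean, with bars for the 95% Poisson interval of the reads and open triangles at the level of 3 reads for genes listed at 0. Csf2 stands alone at the top and, like Il13, Areg and Il5, is higher in pool 1. The intervals of Il4, Rad50 and Kif3a overlap between the pools.

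From Kif3a to Il3 the tables hold 15 genes over 702 kb, 5 of them cytokine genes. Of the 10 others, 6 were detected: Irf1, a transcription factor of the interferon response and the highest of the interval at 74.6 ± 11.9 RPKM, Rad50, the prolyl hydroxylase gene P4ha2 (9.93 ± 0.465), the carnitine transporter gene Slc22a5 (7.02 ± 1.27), Kif3a and the long noncoding RNA gene Gm12216 (3.92 ± 0.897). The transporter genes Slc22a21 and Slc22a4, the LIM domain gene Pdlim4 and the noncoding gene 4933405E24Rik were each under 1 RPKM in both pools. The median log2(RPKM + 0.1) of the 5 cytokine genes minus that of the 10 others was 0.38 in pool 1 and −0.11 in pool 2 (mean 0.14 ± 0.34), a difference smaller than the spread between the pools. The mean difference was −0.54 against Rad50 and Kif3a alone, 0.80 without Il3 and 0.42 with means in place of medians.

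The far ends of the cluster were also uneven. Beyond Kif3a, the septin gene Septin8 was at 42.2 ± 5.15 RPKM, while the noncoding genes A430108G06Rik and Gm19835 were listed at 0. Csf2 is flanked by genes with few or no reads: 4933405E24Rik had 2 reads in either pool, Il3 had 0, and beyond Il3 the fatty acid activating gene Acsl6 had 3 and 9 reads and Meikin 0. The next expressed gene was Fnip1, a partner of folliculin, at 3.90 and 6.33 RPKM. The neighbours of Il9 on chromosome 13, Gm3045 and Slc25a48 on one side, were listed at 0 like Il9, and Fbxl21 on the other side, which overlaps Lect2, stood at 20.7 and 20.4 RPKM.

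**Figure D2:**
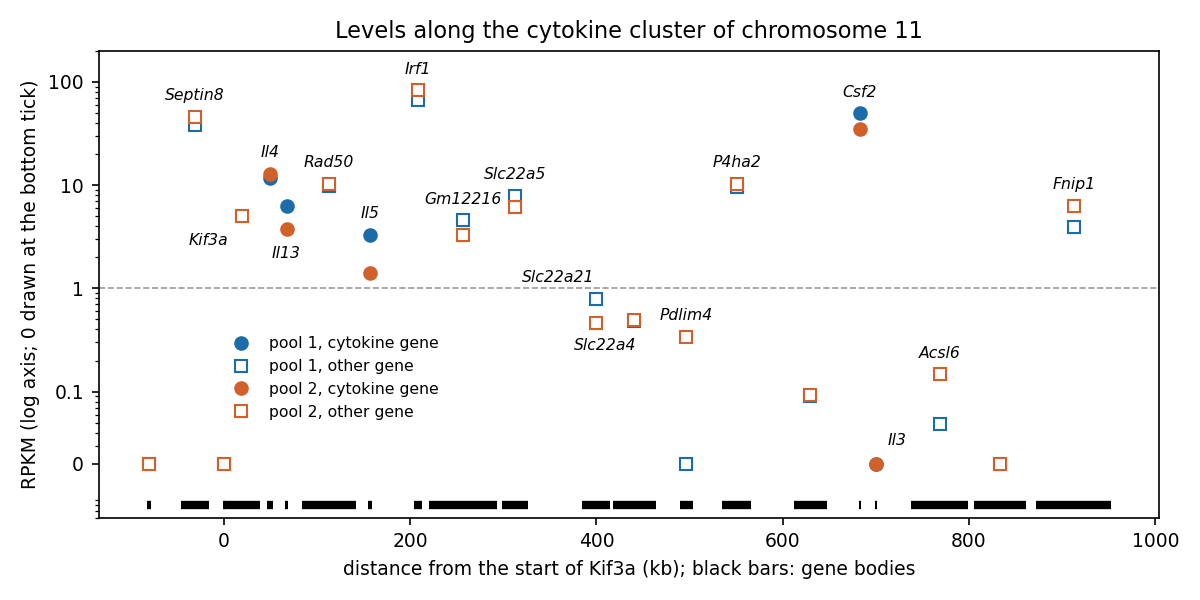
RPKM on a log axis against the distance in kb from the start of Kif3a, with filled circles for the cytokine genes, open squares for the other genes, blue for pool 1, orange for pool 2 and black bars for gene bodies. Csf2, at 49.5 and 35.2 RPKM, stands between genes with 9 reads or fewer, while Il4, Il13, Rad50 and Kif3a lie side by side between 3.76 and 12.8 RPKM.

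Between the pools, 2 of the 7 detected genes were at least 2-fold apart on the log2(RPKM + 0.1) scale, Il5 and Areg, both higher in pool 1. Of all detected genes, 2.56% were that far apart, 0.962% with the higher value in pool 1 and 1.6% in pool 2. Among detected genes with a mean under 10 RPKM, where Il5 and Areg lie, the share was 4.04%, with 1.35% higher in pool 1. From the reads, Areg was 2.38-fold higher in pool 1 (95% Clopper-Pearson interval 1.74 to 3.28) and Il5 2.35-fold (1.63 to 3.44). Il13 was 1.67-fold higher in pool 1 (1.28 to 2.19) and Csf2 1.41-fold (1.28 to 1.55), and neither reached 2-fold. With a pseudocount of 1 in place of 0.1 the log2 ratios of Il5 and Areg were −0.84 and −0.99. At that setting 0 of the 7 genes reached 2-fold, against 1.82% of all detected genes. These intervals cover counting error only, and with 1 library a side no difference has a replicate check.

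The cytokine genes differed in their ratios. Il4 lies between Kif3a and Il13, and its log2 ratio of pool 2 to pool 1 was 0.12 (fold 1.09, interval 0.891 to 1.32), near the median of 0.044 over all detected genes. The ratio was −0.72 for Il13, −1.18 for Il5, −0.49 for Csf2 and −1.22 for Areg. Rad50 had 0.087 (fold 1.06, interval 0.974 to 1.16) and Kif3a −0.019 (fold 0.986, interval 0.831 to 1.17). The intervals of Rad50, Kif3a and Il4 each leave out a difference of 1.5-fold. At that smaller fold Il13 joined Il5 and Areg (3 of 7, all higher in pool 1, against 8.45% of all detected genes in either direction and 2.6% higher in pool 1).

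Other transcripts differed between the pools as well. Immediate early genes, which cells switch on within minutes of stimulation or handling, were higher in pool 1: 11 of 12 were detected and all 11 were at least 2-fold higher there, with summed levels of 9892 RPKM against 642 and a median log2 ratio of −3.57. Zfp36, on that list, encodes a protein that binds AU-rich elements and destabilises RNA, and it had 2786 RPKM in pool 1 against 120.3. In the direction of pool 2, eosinophil markers summed to 53.7 and 595 RPKM (6 of 8 detected, 5 of them 2-fold higher). Neutrophil and monocyte markers, also higher in pool 2, summed to 1065 and 2508 RPKM (9 of 9 detected, 4 of them 2-fold higher). Of all genes, 40.5% were detected. Among all detected genes, 0.962% were at least 2-fold higher in pool 1 and 1.6% in pool 2. In bulk RNA, a change in the share of a cell type and a change in RNA per cell cannot be told apart. The part of these transcripts in the differences of Il5, Areg, Il13 and Csf2 was not tested.

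**Figure D3:**
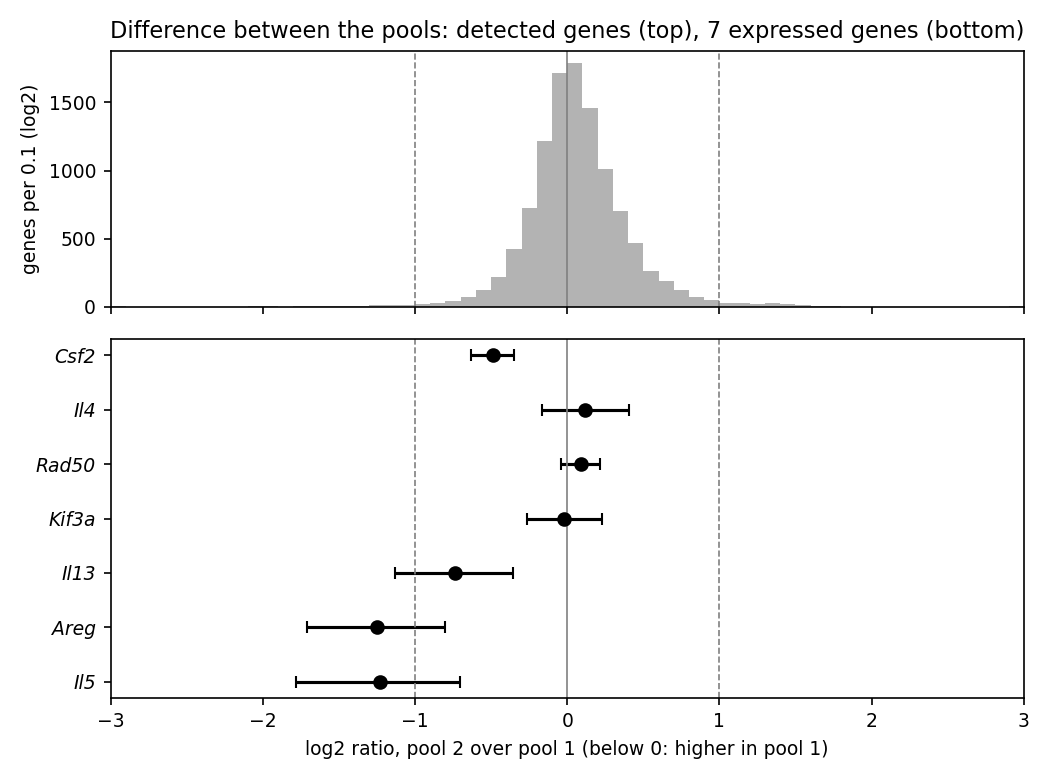
Top, number of detected genes per bin of the log2 ratio of pool 2 to pool 1, with ratios beyond 3 placed in the end bins; bottom, the ratio of the 7 expressed genes with its 95% counting interval, and dashed lines at 2-fold. Il5 and Areg lie beyond the line on the side of pool 1, Il13 and Csf2 lie short of it, and the intervals of Il4, Rad50 and Kif3a include 0.

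Basophils and mast cells also transcribe Il4 and Il13, and activated T cells can transcribe the cytokine genes of the cluster, so their markers were measured beside them. Of 12 basophil and mast cell markers 5 were detected, a share close to the 40.5% of all genes. Their summed levels were 113.9 RPKM in pool 1 and 108.9 in pool 2. The basophil proteases Prss34 and Mcpt8 stood at 42.5 and 26.7 RPKM in pool 1 and at 33.0 and 16.6 RPKM in pool 2, and the mast cell carboxypeptidase gene Cpa3 at 37.4 and 50.2 RPKM. The histidine decarboxylase gene Hdc had 1.79 and 3.84 RPKM and the IgE receptor gene Fcer1a 2.99 and 1.33, so the detected markers did not all differ in 1 direction. The mast cell protease genes Cma1, Mcpt4, Tpsab1 and Tpsb2 were listed at 0 in both. T cell markers were abundant, with 12 of 13 detected against 40.5% of all genes. They summed to 1059.9 and 1259 RPKM. The highest were Trbc2 (437.5 and 426.8 RPKM), Trbc1 (148.9 and 182.1) and Cd3g (104.4 and 195.3), with Cd4 at 27.7 and 33.5 RPKM and Cd8a at 0. Of the 12 detected, 11 were higher in pool 2 by any amount and 0 were 2-fold apart. The 1 higher in pool 1 compares with 42.7% of all detected genes. The part of basophils, mast cells, T cells or eosinophils, whose markers are given above, in the cytokine levels was not tested.

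Among 27 other secreted cytokine genes, 10 were detected, against 40.5% of all genes. The highest were Ltb, which encodes lymphotoxin beta (1685 ± 141 RPKM), Tgfb1 (126 ± 13.5) and Il16 (60.0 ± 14.9). These, Tnfsf11 (59.8 ± 7.30) and Osm (56.1 ± 17.2) had higher means than Csf2, although Il16 equalled it in pool 1 at 49.5 RPKM. Below Csf2 were the macrophage growth factor gene Csf1 (21.8 ± 4.35), Lta (15.7 ± 1.98), Lif (11.7 ± 10.6), Tnf (7.83 ± 2.80) and Il22 (4.35 ± 1.19). Il4 lay between Lta and Lif by mean, Il13 between Tnf and Il22, and Areg and Il5 below Il22. Others of the list had few reads: Ifng had 1.07 and 0.710 RPKM, Il17f 0.252 and 0.257, and Il17a 0 and 0.0431, while Il21, Il24, Il25, Il31 and Csf3 were listed at 0. Of the 10 detected genes 7 were higher in pool 1 by any amount, against 42.7% of all detected genes. Lif was the 1 gene at least 2-fold apart (2.56% of all detected genes), at 19.2 RPKM in pool 1 and 4.16 in pool 2.

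**Figure D4:**
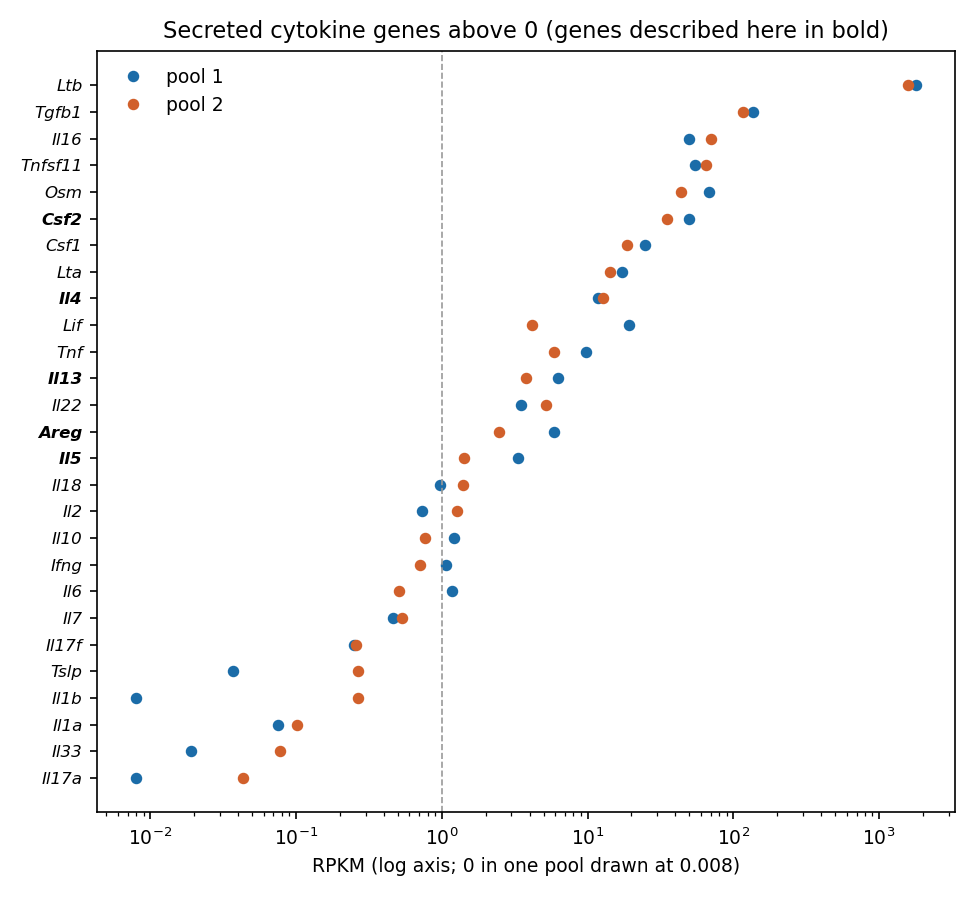
RPKM on a log axis of the secreted cytokine genes above 0 in either pool, blue for pool 1 and orange for pool 2, with the genes described here in bold and a dashed line at 1 RPKM. Csf2 is surpassed in mean by Ltb, Tgfb1, Il16, Tnfsf11 and Osm, and the means of Il13, Areg and Il5 lie between those of Tnf and Il18.

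Receptors for these cytokines were expressed unevenly, with 6 of 14 detected, against 40.5% of all genes. Of the 6, 0 were 2-fold apart between the pools, where 2.56% of all detected genes were. The common gamma chain Il2rg, which serves the IL-4 and IL-9 receptors, stood at 700.5 ± 54.6 RPKM. The IL-9 receptor chain Il9r was at 63.9 and 71.0 RPKM although Il9 itself was listed at 0. The IL-4 receptor chain Il4ra was at 19.7 and 22.4 RPKM, the IL-3 receptor chain Il3ra at 12.6 and 15.3, and the GM-CSF receptor chain Csf2ra at 9.10 and 8.92. The shared signalling chain of the IL-3, IL-5 and GM-CSF receptors was low, with Csf2rb at 0.779 and 1.38 RPKM and its mouse paralogue Csf2rb2 at 0.407 and 0.568. Csf2rb and Csf2rb2 are close copies between which reads may be split. Il5ra had 0.0556 and 0.198 RPKM, Il13ra1 0.564 and 0.369, and the amphiregulin receptor gene Egfr 0.0461 and 0.0705. Of the related receptor genes, Erbb3 was detected at 2.20 and 2.50 RPKM and Erbb2 had 0.0693 and 0.151, while Erbb4 and Il13ra2 were listed at 0.

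Of 27 listed genes that act on the type 2 cytokine locus, 26 were detected, against 40.5% of all genes. The 3 highest were Junb (1969.6 RPKM in pool 1 and 189.7 in pool 2), the ETS family factor Ets1 (282 ± 19.1) and Gata3, which drives type 2 cytokine transcription. Stat6, the mediator of IL-4 receptor signalling, was at 98.1 ± 6.39 RPKM, Batf at 72.2 ± 18.04, Maf, an activator of Il4, at 43.8 ± 9.80, and Nfatc2 at 15.5 ± 1.88. Bhlhe41 was the lowest at 0.0696 and 0.284 RPKM. Junb was 10.4-fold higher in pool 1 and Tbx21, the T helper 1 factor, was higher in pool 2 (1.67 and 3.93 RPKM). The other 24 detected genes were within 2-fold, and 2.56% of all detected genes were 2-fold or more apart.

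Areg was not accompanied by its genomic neighbours of the EGF family. Ereg was listed at 0 in both pools, Epgn had 0 and 3 reads, and Btc had 0.980 and 0.561 RPKM. Of 13 genes of EGF family ligands and their shedding, 4 were detected, against 40.5% of all genes. They were Areg, Hbegf (3.52 and 2.50 RPKM), Adam17, the protease that releases amphiregulin from the membrane (22.8 and 25.6), and its cofactor Rhbdf2 (4.70 and 5.37). Areg was the 1 gene of the 4 at least 2-fold apart. Of all detected genes 2.56% were, and 4.04% of those with a mean under 10 RPKM.

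AU-rich pentamers (ATTTA in the DNA letters of the annotation, gene strand only, overlaps counted) were counted in the 3′ UTR of the main GENCODE coding transcript of each gene. The stretches below are the 30-base stretches with the most pentamers in 3 of these UTRs, those with 3 or more in 1 stretch, with the pentamers in capitals.
Csf2, chr11:54247329-54247358, − strand: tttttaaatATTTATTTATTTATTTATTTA
Il9, chr13:56479329-56479358, − strand: agatgctATTTAttctATTTAttgaATTTA
Areg, chr5:91148369-91148398, + strand: ataATTTATTTAatATTTAagtgttATTTA
Csf2 held 9 pentamers in 317 bases, and 0.0195% of 15403 UTRs at least as long hold as many in their last 317 bases. Il9 held 3 in 86 bases (0.443% at the same length), Areg 4 in 253 (1.14%), Il5 7 in 1092 (3.25%) and Il4 2 in 104 (4.2%). Il3 with 1 in 101 bases (22.4%), Il13 with 3 in 741 (22.6%), Rad50 with 3 in 950 (31.7%) and Kif3a with 1 in 908 (76.8%) were less unusual. For Il3 and Kif3a this holds for the GENCODE UTR only, which ends at chr11:54265303 and chr11:53601967. Their RefSeq spans run on to chr11:54265085 and chr11:53604248, and those parts were not searched. The pentamer was dense both in Csf2, the highest of the genes, and in Il9, which was listed at 0. The sequence describes the annotation, and no stability was measured.

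Areg and Kif3a had the CpG-rich promoters of the set. The ratio of observed to expected CpG in the 300 bases around the start was 0.819 for Areg and 0.675 for Kif3a, above 80.7% and 69.1% of all promoters, whose median is 0.384. The other entries lay under that median, from 0.0520 at the downstream start of Il4 to 0.341 for Il5. These values cover 8 of the 9 genes, all but Rad50. The RefSeq start of Csf2 lies 232 bases upstream of the GENCODE start. Of the 9 entries, 6 held a GATA motif, against 29.8% of all promoters. They were those of Csf2 (at −247), Il13, Il3 (at −101), Il5 and both starts of Il4, each start being counted as an entry. Areg, Il9 and Kif3a held none in this window, and Il9 held the AP-1 motif TGACTCA at −140, which 5.2% of promoters hold in the forms TGAGTCA or TGACTCA.

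**Figure D5:**
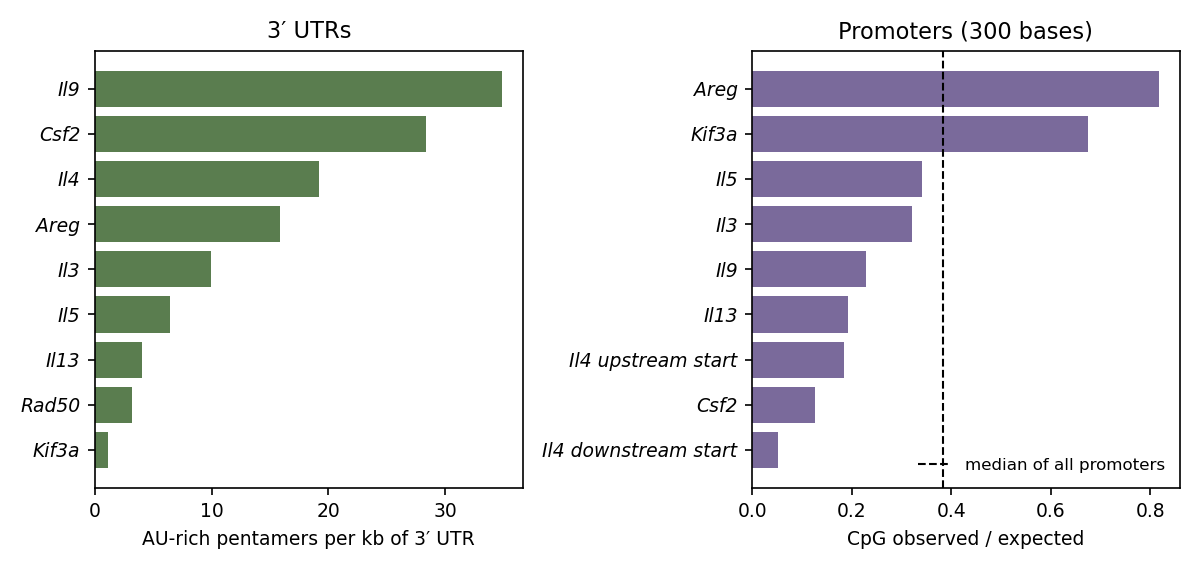
Left, ATTTA pentamers per kb of 3′ UTR for the 9 genes; right, the ratio of observed to expected CpG in the 300 bases around each RefSeq start, with Il4 shown at both of its starts and a dashed line at the median of all promoters. Il9 and Csf2 have the densest GENCODE UTRs, and Areg and Kif3a lie above the median of promoters. The UTRs of Il3 and Kif3a end short of the RefSeq spans of these genes.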

How the data were processed

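The authors deposited 1 table of RPKM per library, with Entrez gene ID and symbol. The mm10 build, featureCounts, CASAVA 1.8.2 and edgeR (3.8.2 and 3.22.0) are named in the submitters' processing notes, which give no order of steps. Per the labels, 100 ng of total RNA entered the Illumina TruSeq preparation. Which aligner was used, and whether counting was stranded, is not given in the sources used here.

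Files follow the sample under which GEO lists them. Library totals were found as the whole numbers that make single-read genes fall on whole gene lengths. With them, 17233 of 17233 genes above 0 (100%) had a length giving whole reads in both pools, against 0% with totals 1.001 times too large in 383 genes, every 40th of those above 0 in both. Whole means within the rounding of values with 10 significant digits and at most 9 decimals, widened by 2%. The smallest such length was used, or, where it lay under 40% of the main GENCODE transcript, the multiple nearest to that. The reads then sum to 99.6% and 99.5% of the totals. Ratios used log2(RPKM + 0.1), which understates low genes.

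With 1 group, no between-group test was made. Genes named were the 9 members, their genomic neighbours and the extremes of fixed lists, with others chosen after their values were seen. No gene was sought by likeness of pattern, which needs more than 2 values. Members and lists were chosen with earlier results of these data known. Coordinates and promoters are RefSeq GRCm38.p6, and UTRs GENCODE M21. Symbols such as 8-Sep, a spreadsheet date, were replaced through the ID. Python 3.11.15, numpy 2.4.6, pandas 2.3.3 and scipy 1.17.1 were used, and the code was tested on simulated data.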

Additional observations from a re-analysis of the deposited data

How the results depend on the processing

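Il5 and Areg were the genes at least 2-fold apart with a pseudocount of 0.01, with pool 2 scaled by the median ratio of 1.03, without a filter and with the added demand that the counting interval leave out 1. With a pseudocount of 1 the number was 0, since Il5 then stood at −0.84 and Areg at −0.99 (log2), and with 5 RPKM in both pools it was 0 because Il5, Areg and Il13 leave the 4 genes tested. Of the 11013 detected genes, 282 (2.56%) were 2-fold apart and 931 (8.45%) were 1.5-fold apart. The number was 1535 of 27179 genes (5.65%) without a filter and 102 of 8323 (1.23%) at 5 RPKM in both pools. The share was 2.7% with a pseudocount of 0.01 and 1.82% with a pseudocount of 1. With pool 2 scaled it was 2.45%, and with the counting interval added 2.33%. The number of the 9 genes detected was 7 in the alternatives run (41.4% to 63.4% of all genes) except at 5 RPKM, where it was 4 (30.6% of all genes). The cytokine genes minus the other genes of the interval ranged from −0.11 to 0.38 when 1 pool was left out. That difference depended on which genes entered. It turned to −0.54 against Rad50 and Kif3a alone, where the genes under 1 RPKM are among those left out. Without Il3, the cytokine gene listed at 0, it was 0.80, and with means in place of medians it was 0.42. Il5 rests on 43 reads in pool 2, and 2 pools are the whole replication. No paired analysis was possible because there is 1 group.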
